A study of Mus musculus with 6 samples.

Results

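The cells described here are those that stuck to the plate in a culture of fetal mouse lung and were then sorted for VE-cadherin, an adhesion protein of endothelial cells. They make up 3 of the 6 libraries of the series, and were chosen by their labels alone, as the adherent fraction at days 4, 5 and 6 of culture. The lungs came from wild type C57BL6 fetuses at embryonic day 17. They were digested with Liberase and the cells were frozen in DMSO, then plated on thin, diluted Matrigel, a basement membrane extract, in a medium for blood stem and progenitor cells that held thrombopoietin, IL6, SCF, FGF, VEGF and Flt3. All wells were washed and given fresh medium on day 3. On each collection day the floating cells were taken first (the other 3 libraries, used below only as a reference), and the attached layer was freed with accutase and enriched for live cells carrying VE-cadherin. No group carried a transgene or a further treatment, and the labels of the 3 adherent libraries differ only in the day. With 1 library per day and no replicate within a day, the day cannot be told apart from the library, its sort and its plating.

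Endothelial cells line blood vessels. In the fetal lung they form a capillary net around the future air sacs together with pericytes and smooth muscle, fibroblasts and epithelium, and resident macrophages are already present. Some endothelial cells of the embryo, known as haemogenic endothelium, can turn into blood cells under the control of the transcription factor Runx1, and media such as this one are used to support blood progenitors. A culture of primary cells changes as it ages, since dividing, attaching and dying cells alter its make-up and each cell alters its own transcription.

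The sense counts of the adherent libraries of days 4, 5 and 6 summed to 38885531, 36451255 and 40882433 reads, and 18439, 18741 and 18980 genes had a count. Values are CPM, the usual unit of counts scaled to library size, after scaling the 3 libraries with TMM factors of 0.988 to 1.02, and 3 counts correspond to between 0.0742 and 0.0807 CPM. Reads that mapped to several places took 22.6%, 20.2% and 18.7% of all reads on days 4, 5 and 6, and uniquely mapped reads outside genes took 34.9%, 32.2% and 31.1% of unique reads, so both shares went down with time beside every result below. The files hold whole libraries with no cell axis. Fewer cells of a type and less RNA per cell therefore cannot be told apart.

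Patterns over the 3 days were described by size, without a test, among the 9071 genes that reached 10 CPM in at least 1 adherent library. A rising pattern means that day 6 was at least 2-fold above day 4, on log2(CPM + 0.5), with day 5 between them, and a falling pattern is the reverse. There were 579 genes with a rising pattern (6.38%) and 369 with a falling one (4.07%). Only 18 genes peaked on day 5, at 2-fold above both neighbours (0.198%), and 5 dipped (0.0551%). A further 29 genes were 2-fold higher and 55 were 2-fold lower on day 6 than on day 4 with day 5 outside that range. From day 4 to day 5, 200 genes were 2-fold higher (2.2%) and 117 lower (1.29%). From day 5 to day 6, 214 were higher (2.36%) and 235 lower (2.59%). Between days 4 and 6 the counts were 608 (6.7%) and 424 (4.67%). The median gene with a rising pattern had made 45.7% of its log2 change by day 5 and the median gene with a falling pattern 53.2%. The median log2 ratio of day 6 to day 4 over all 9071 genes was -0.04. Of these, 4202 were higher on day 6 than on day 4 and 4869 were lower, whatever the size of the change.

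**Figure D1:**
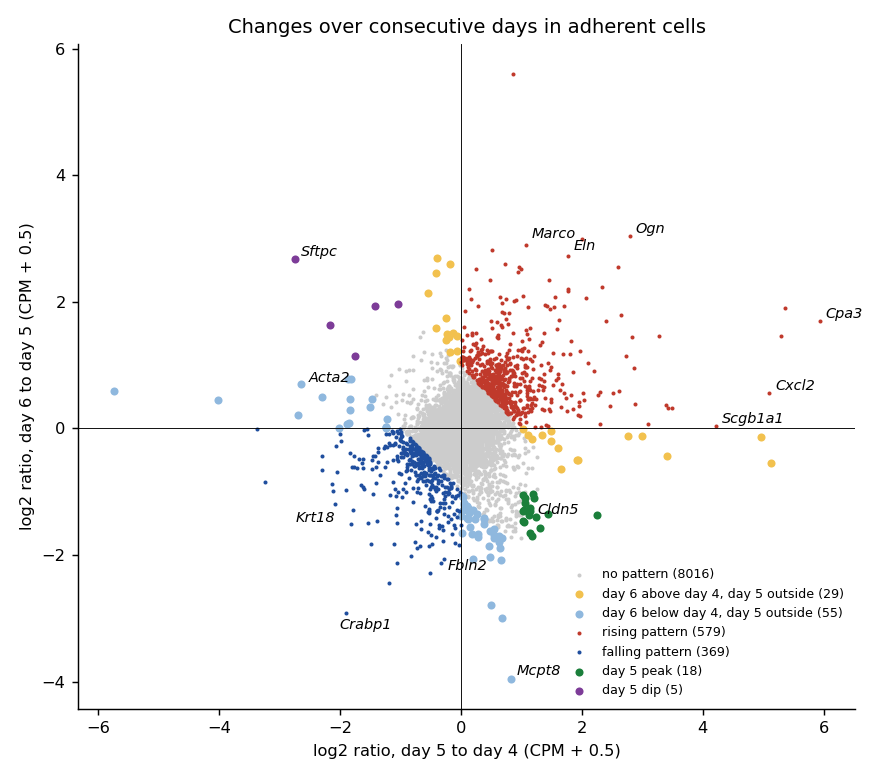
Each point is 1 of 9071 genes, with the log2 ratio of day 5 to day 4 on the x axis and of day 6 to day 5 on the y axis (CPM + 0.5), coloured by pattern. The 18 day 5 peaks lie at the lower right, the 5 dips at the upper left, and the 579 rising and 369 falling genes lie at the upper right and lower left.

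The slope per day in adherent cells could be tested, because all 6 libraries together leave 2 degrees of freedom about a straight line within each fraction. With the quasi-likelihood test of edgeR and adjustment after Benjamini and Hochberg over 15662 genes, 999 slopes were called above 0 (6.38%) and 700 below 0 (4.47%). "Rose" and "fell" are used below only of genes called by this test. Of the 579 genes with a rising pattern 472 were called, and of the 369 with a falling pattern 279. No slope was called among the genes that peaked or dipped on day 5, since a straight line cannot show such a shape. The calls changed with the libraries in the fit. With 1 library left out, here and below, 1 residual degree of freedom is left. The line of that fraction then passes exactly through its 2 remaining libraries. Without an adherent library the spread thus comes from the suspension libraries alone. Without a suspension library it comes from the adherent libraries alone, whichever day is dropped. The counts alone therefore do not show how far the calls rest on the library left out. Without the adherent library of day 4, 5 or 6 there were 306, 1749 and 248 calls above 0 and 213, 1437 and 150 below 0. Without the suspension library of day 4, 5 or 6 there were 561, 539 and 551 above and 298, 289 and 300 below. In every one of these 6 fits 43 of the rising and 6 of the falling calls were kept. Where an adherent library was dropped, here and below, a kept call does not measure spread between adherent libraries. Separate cultures for the days are not named in the labels, and these p-values therefore measure the spread between these libraries only, which may be technical. Whether the slope differed between adherent and floating cells depended on the fit, in tests added after the data were seen. It differed in 1 gene with the libraries taken as independent (0.00638%), and in 786 with the collection day as a block (5.02%), of which 651 were above 0 and 135 below. That fit leaves 1 residual degree of freedom. Its calls above 0 included 9 of 13 basement membrane, 13 of 22 macrophage, 11 of 20 epithelial, 8 of 16 fibroblast and 8 of 19 immediate early genes. Below 0 were 10 of 24 G2 and M phase and 1 of 20 sterol genes. A difference above 0 need not be a rise in adherent cells. The median slope of the epithelial genes was -0.36 in adherent and -1.89 in floating cells, and that of the basement membrane genes -0.20 and -1.06.

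Endothelial genes were at their highest on day 5. Of 24 endothelial genes, 21 reached 10 CPM and all 21 had their highest value on day 5, beside 19.6% of all genes. Day 5 was the lowest library for none of the 21, beside 19.9% of all genes. Of these, 4 passed the 2-fold rule for a peak, namely Cldn5, Egfl7, Tie1 and Mmrn2. The summed level of the 24 genes was 1530.2 CPM on day 4, 2698 on day 5 and 1074 on day 6, or 0.152%, 0.275% and 0.106% of counts. Their median log2 ratio was 0.85 from day 4 to day 5 and -1.33 from day 5 to day 6. Between days 4 and 6, 20 of 21 were lower on day 6 (median -0.48), beside 4869 of all 9071 genes. No slope of the 24 was called by edgeR over all 6 libraries. Dropping adherent day 4 gave 16 calls below 0, and dropping day 5 gave 8. Dropping day 6 gave 6 calls above 0. In each of these fits the spread came from the floating cells alone, where the 24 genes summed to 68.6, 62.4 and 40.4 CPM. These counts therefore do not show how the 24 genes vary between adherent libraries. A peak on day 5 rests on the day 5 library alone.

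Cdh5 (ENSMUSG00000031871, chromosome 8, 104101625 to 104144511 on GRCm38) encodes VE-cadherin, the protein the sort was made on. It stood at 159 CPM on day 4, 242 on day 5 and 83.9 on day 6. Its level on day 4 was thus 1.89 times that on day 6 (95% counting interval 1.81 to 1.97). Here and below such intervals cover counting error of reads only, and reads are not molecules. The slope of Cdh5, -0.46 ± 0.35 log2 per day (edgeR adjusted p = 0.433), was not called. Cldn5, the main claudin of endothelial tight junctions, was at 221, 489.7 and 198 CPM. Its day 5 level was 2.21 times that of day 4 (2.16 to 2.27) and 2.48 times that of day 6 (2.41 to 2.54), while days 4 and 6 differed by a factor of 1.12. Egfl7, a protein secreted by endothelial cells, stood at 138, 300.2 and 116 CPM, and the junction protein gene Pecam1 at 92.0, 166 and 57.0. The sialomucin gene Emcn, of capillaries and veins, read 113, 220.9 and 87.7 CPM and the VEGF receptor gene Kdr 26.4, 41.8 and 14.8. In each of these genes day 5 was the high library and day 6 the low one. The exception to the low day 6 was Mmrn2, an extracellular matrix protein of endothelium, at 11.4, 31.6 and 12.2 CPM. In the floating cells of the same days, scaled separately, the 24 genes summed to 68.6, 62.4 and 40.4 CPM.

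**Figure D2:**
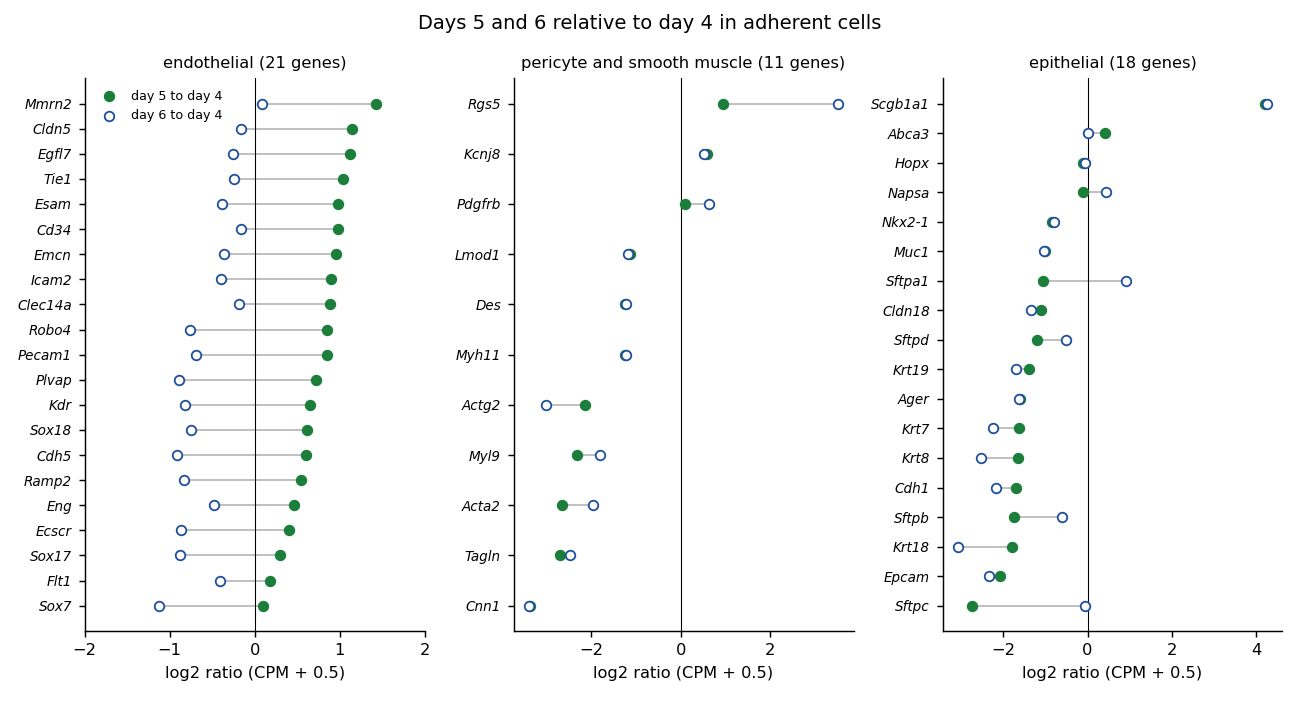
Each row is a gene with at least 10 CPM, with the log2 ratio of day 5 to day 4 (filled) and of day 6 to day 4 (open). All 21 endothelial genes lie above 0 on day 5 and 20 below 0 on day 6, while most pericyte, smooth muscle and epithelial genes were already low on day 5.

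Genes of endothelial subtypes did not all follow the same course. Gpihbp1, which anchors lipoprotein lipase to general capillary cells, peaked at 247 CPM on day 5 against 108 and 119.9. Pgf, a growth factor of the VEGF family, peaked at 230.5 against 99.8 and 107. Of 6 general capillary genes 5 were highest on day 5, and of 6 genes listed for aerocytes, the large gas exchange capillary cells, 1 was. Among these 6 aerocyte genes 1 had a rising pattern and 2 a falling one (median log2 ratio of day 6 to day 4 0.04). The rising one was Ednrb, an endothelin receptor, which rose from 62.4 through 89.8 to 161 CPM (slope 0.69 ± 0.08, edgeR adjusted p = 0.0125, or 0.118 without the adherent library of day 6). Car4, a defining aerocyte gene, had 0 counts on days 4 and 6 and 3 on day 5. Of 12 tip cell genes, expressed at the growing ends of vessels, 7 were highest on day 5, beside 19.6% of all genes, and 1 of these peaked. A falling pattern was seen in 4, beside 4.07% of all genes, with most of the change after day 5. The median log2 ratio of day 6 to day 4 of the 12 was -0.93. The ligand gene Apln, also on the aerocyte list, stood at 94.8, 92.9 and 37.2 CPM. Unc5b, a guidance receptor, was at 36.4, 33.4 and 11.2, and Plaur, the urokinase receptor, at 84.4, 73.6 and 30.7. Pdgfb, which recruits pericytes, went from 45.4 through 37.4 to 15.4. Of 7 arterial genes 1 had a falling pattern and of 4 venous genes none (medians -0.64 and 0.51). Among 4 lymphatic genes 3 were lower on day 6 with day 5 as the highest, Lyve1 for example at 66.7, 79.9 and 30.9 CPM, and the defining lymphatic factor gene Prox1 was at 2.62, 1.80 and 0.668.

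Matrix and signalling genes of vessels also stood high on day 5. Of 13 basement membrane genes 10 had their highest value then, and none had any of the 2-fold patterns. Sparc, which binds collagen, was at 2479.9, 2929 and 1517 CPM and Col4a1, a chain of type IV collagen, at 611, 761 and 463. Of 8 Notch pathway genes 6 were highest on day 5, and the endothelial receptor gene Notch4 peaked at 22.1 against 10.55 and 7.72 CPM. Of 11 genes of the VEGF and angiopoietin system 7 were highest on day 5. Nos3, the nitric oxide synthase of endothelium, stood at 15.5, 24.5 and 6.24 CPM, and Klf2, a factor that responds to flow, at 105, 199 and 98.4. On the same list of 10 flow and tone genes Edn1 (endothelin) and Cav1 (caveolin) had falling patterns, from 11.4 to 3.49 and from 72.9 to 24.1 CPM.

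Smooth muscle genes were high in the day 4 library and low in both later ones. The 13 pericyte and smooth muscle genes summed to 3954 CPM on day 4, 865 on day 5 and 1082 on day 6. Acta2 (ENSMUSG00000035783, chromosome 19, 34241090 to 34255590), smooth muscle actin, was at 1573, 251 and 407 CPM. Tagln, an actin-binding protein of smooth muscle, was at 1352, 209 and 243, the intermediate filament gene Des at 491, 209 and 212, and the myosin light chain gene Myl9 at 173, 34.6 and 49.2. Day 4 is the high library in all 4 and day 5 the low one. Cnn1 (calponin) had 44.2 CPM on day 4 and 3.82 and 3.79 after that. Of 11 genes that reached 10 CPM, 3 had a falling pattern, 5 were 2-fold lower on day 6 with day 5 lower still, and 1 had a rising pattern (median log2 ratio -1.21). The rising gene was Rgs5, a marker of pericytes, at 0.674, 1.78 and 12.9 CPM. Pdgfrb and Kcnj8, also genes of pericytes, were in no class, at 36.8, 39.2 and 57.5 and at 25.1, 38.1 and 36.0 CPM. The contractile genes of the list were thus lower after day 4, and these 3 pericyte genes were not. The slope test of edgeR called 2 below 0 and 1 above 0, but 7 below 0 without the adherent library of day 5 and none without that of day 4.

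Epithelial genes went 2 ways, with keratins low after day 4 and surfactant genes lowest on day 5. Krt18 and Krt8, the keratin pair of simple epithelia, fell from 273 through 78.5 to 31.9 CPM and from 146 through 46.0 to 24.6. Their slopes were -1.55 ± 0.10 and -1.28 ± 0.12 log2 per day (edgeR adjusted p = 0.00926 and 0.0104), and both were called in every fit that left out 1 library. Epcam and Cdh1, adhesion genes of epithelium, stood at 60.0, 13.8 and 11.4 and at 23.7, 7.02 and 4.90 CPM. Ager, a marker of flat alveolar cells, was at 106, 34.5 and 34.1. Of the surfactant protein genes of secretory alveolar cells, 3 dipped instead. Sftpc (ENSMUSG00000022097, chromosome 14, 70520949 to 70524081) was at 860.2 CPM on day 4, 128 on day 5 and 822 on day 6. Its day 5 level was 6.72 times below day 4 and 6.41 times below day 6 (95% counting interval 6.22 to 6.61). Sftpb was at 141, 41.5 and 92.8 and Sftpa1 at 12.1, 5.60 and 23.2, while Sftpd, at 38.5, 16.6 and 26.8, was within 2-fold between days 5 and 6. The other dips of the 5 were Bex4 at 16.5, 3.28 and 11.3 and the chemokine gene Ccl8 at 25.4, 9.17 and 36.5. The club cell secretory gene Scgb1a1 stood apart with 2.93, 63.1 and 65.1 CPM. Of 18 epithelial genes with 10 CPM, 9 had a falling pattern, 3 dipped and 1 had a rising one (median log2 ratio -0.92), and the 20 listed genes summed to 2078, 635 and 1315 CPM. The slope test of edgeR called 6 below 0, and 2 below and 4 above 0 without the adherent library of day 4, 8 below and 2 above without that of day 5, and 9 below and 1 above without that of day 6. Of the mesothelial genes only Msln reached 10 CPM. It stood at 65.4, 15.1 and 6.31 CPM, while the defining genes Upk3b and Wt1 were under 1 CPM on every day and Lrrn4 had no count.

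Genes of lung fibroblasts were mostly higher later. Of 13 with 10 CPM, 6 had a rising pattern and 1, Thy1, a falling one, with a median log2 ratio of 1.496. The 16 listed genes summed to 1808, 2623 and 2804 CPM. Col3a1, a chain of type III collagen, was at 251, 576 and 869 CPM. The elastic fibre gene Mfap4 was at 13.9, 28.2 and 164, Tcf21, a transcription factor of lung mesenchyme, at 4.07, 8.26 and 48.1, and Fgf10, the growth factor that drives branching of the airways, at 4.90, 13.4 and 39.2. In these 4 genes the 3 libraries were ordered by day. Thy1, a surface protein of some fibroblasts, went the other way at 51.7, 31.3 and 16.1. Col1a1 and Col1a2, the chains of type I collagen, were highest on day 5 at 772 and 912 CPM, against 597 and 526 and against 675 and 701 on days 4 and 6. The slope test of edgeR called 5 fibroblast genes above 0 and 1 below. It called 8 above and 1 below when the adherent library of day 5 was left out, and 1 above and none below when that of day 6 was. In the list of transforming growth factor and mesenchymal genes 2 of 18 had a rising and 2 a falling pattern. Vim stood at 3576, 4035 and 2065 CPM and Ccn2, a matrix signal protein, at 133, 60.8 and 58.4.

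Macrophage genes were higher on day 6 than on day 4 in the adherent libraries. Of 21 with 10 CPM all 21 were higher on day 6 than on day 4, beside 4202 of all 9071 genes. A rising pattern was seen in 13 (median log2 ratio of the 21 genes 1.15). The 22 listed genes summed to 8616, 11767 and 17905 CPM, or 0.855%, 1.20% and 1.77% of counts. Lyz2 (lysozyme) was at 1714, 2339 and 4441 CPM, the signalling adaptor gene Tyrobp at 385, 576 and 1156, and Cd68, a lysosomal protein, at 175, 209.7 and 469. Marco, a scavenger receptor of alveolar macrophages, rose from 5.86 through 12.9 to 99.5, 16.99-fold over the 2 days (95% counting interval 14.9 to 19.5, edgeR adjusted p = 0.0119), and its call held in every fit with 1 library left out. Mrc1, the mannose receptor, was the lowest on day 5, at 154, 130.2 and 345 CPM. The slope test called 13 macrophage genes above 0 and none below, but 20 without the adherent library of day 5, 2 without that of day 6, and 8 if the suspension library of day 5 was left out. In the floating cells the same genes summed to 43351, 39539 and 41332 CPM. Although the sort was for VE-cadherin, their sum was above that of the 24 endothelial genes on each day. Their part in the other changes with time was not tested.

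Other blood cell genes also had higher values after day 4. Neutrophil genes summed to 361, 1069 and 1359 CPM, and of 10 with 10 CPM 5 had a rising pattern (median 2.30). S100a8 and S100a9, calcium-binding proteins abundant in neutrophils, were at 82.5, 320 and 427 and at 112, 375 and 527 CPM, and Prtn3, a granule protease of early granulocytes, at 6.56, 59.8 and 63.1. The floating cells of the 3 days had sums of 26501, 34250 and 77177 CPM. By the slope test 6 neutrophil genes were called above 0, with 1 above and 2 below without the adherent library of day 4, 11 above without that of day 5, 10 without that of day 6, and 2 without any 1 of the suspension libraries. Mast cell proteases were near absent on day 4. Cpa3 (carboxypeptidase A3, ENSMUSG00000001865, chromosome 3, 20215620 to 20242181) had 0, 1119 and 3994 counts, or 0, 30.1 and 98.8 CPM, so it was at least 1271-fold higher on day 6 than a floor of 3 counts in the day 4 library. Tpsb2, a tryptase, had 0, 746 and 3105 counts and was at least 988-fold higher, and Cma1, a chymase, stood at 0.337, 32.4 and 90.5 CPM. Hdc, which makes histamine, was at 0.363, 8.72 and 10.99. The basophil protease gene Mcpt8 differed, at 35.5, 63.2 and 3.61 CPM. The slope test called 2 of these mast cell and basophil genes, Tpsb2 and Cma1 (edgeR adjusted p = 0.0435 and 0.0487), and Cpa3 missed it (adjusted p = 0.0598). With the suspension library of day 5 or 6 left out none was called, with that of day 4 left out only 1 was, without the adherent library of day 4 there were 3 above and 1 below 0, without that of day 5 there were 6 above and 1 below, and without that of day 6 there were 5 above. For the floating cells the sums were 260, 353 and 367 CPM. Erythroid and lymphoid genes stayed low, with sums of 2.49, 5.60 and 2.75 CPM and of 3.58, 8.69 and 9.11. Of the megakaryocyte genes only Pf4, which macrophages also express, reached 10 CPM, at 888, 786 and 1443.

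**Figure D3:**
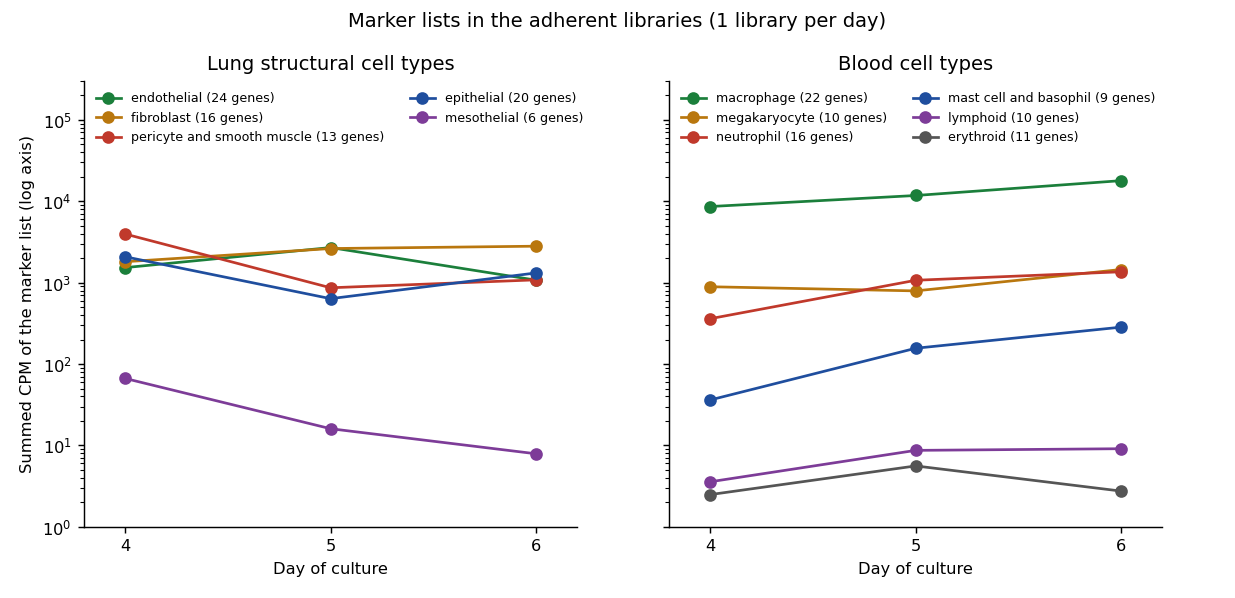
Summed CPM (log axis) of marker lists in the adherent libraries by day, 1 point per library, with structural lung types at the left and blood types at the right. Endothelial genes are highest on day 5 (2698 CPM), smooth muscle and epithelial genes are highest on day 4, and macrophage genes reach 17905 CPM on day 6.

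Regulators of the step from endothelium to blood differed among themselves. Of 12 with 10 CPM, 3 had a rising pattern, beside 6.38% of all genes, and 1 a falling one, beside 4.07%. Day 6 was above day 4 in 6 and below it in 6 (median log2 ratio 0.01). Runx1, which is required for that step, stood at 87.7, 81.6 and 77.5 CPM, and days 4 and 6 differed by a factor of 1.13 (1.08 to 1.19). Gfi1, a repressor of the endothelial programme, was low at 2.13, 1.64 and 0.470 CPM. Those with a rising pattern were Spi1 (PU.1), a factor of myeloid cells, at 39.6, 61.2 and 117, Ptprc (CD45), the common leukocyte antigen, at 14.05, 21.5 and 40.8, and Hlf, a factor of stem cells, at 2.49, 7.24 and 11.7. The falling one was Adgrg1, an adhesion receptor, at 10.8, 5.30 and 2.47 CPM. In each of these 4 genes the days were in order. Spi1 and Ptprc are also expressed by macrophages, whose sums are given above. Their part in these values was not tested. Slopes above and below 0 were called for 5 and 1, but for 7 and 2 once the adherent library of day 5 was left out, 2 and 1 once that of day 4 was, and 1 and 0 once that of day 6 was.

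Genes of cell division were lower on day 6 than on day 4. All 24 G2 and M phase genes and all 24 S phase genes were lower on day 6, beside 4869 of all 9071 genes. Their median log2 ratios of day 6 to day 4 were -1.08 and -0.65. A falling pattern was seen in 17 G2 and M phase genes and 5 S phase genes. Summed over 24 genes, G2 and M phase stood at 2240.4, 1493 and 1089 CPM, and S phase at 1213, 851 and 707. In 2 S phase genes, Pcna and Ung, day 5 was the lowest library, at 39.6 against 42.2 on day 6 and at 8.50 against 8.98. The kinase gene Plk1 was at 43.1, 26.8 and 15.5 CPM, Aurka, a kinase of the spindle poles, at 38.9, 21.1 and 14.2, the kinetochore motor gene Cenpe at 110.4, 66.3 and 45.3, and Top2a, a topoisomerase, at 237, 149 and 116. The proliferation marker gene Mki67 read 132, 93.9 and 89.6 CPM. Slopes below 0 were called by edgeR for 22 G2 and M phase genes and 14 S phase genes, and none above 0. Leaving out the adherent library of day 4 left 3 and 0 calls, leaving out that of day 5 gave 23 and 17, and leaving out that of day 6 left 7 and 3. With the suspension library of day 4, 5 or 6 left out, 19 G2 and M phase genes were called each time, and 6, 5 and 6 S phase genes. Among floating cells the G2 and M phase genes summed to 2438, 2244 and 2252 CPM and the S phase genes to 1239, 1224 and 1150.3.

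Genes of sterol synthesis, which make cholesterol from acetyl-CoA, were also lower later. All 20 were lower on day 6 than on day 4 (median log2 ratio -1.16), beside 4869 of all 9071 genes. Of the 20, 13 had a falling pattern, and the 20 genes summed to 1783, 1161 and 806 CPM. Hmgcs1, the synthase at the head of the pathway, was at 226, 132 and 87.1 CPM, Nsdhl, a late enzyme, at 73.8, 47.4 and 32.1, and Acat2, which joins acetyl-CoA units, at 92.9, 50.9 and 29.2. In each of these the 3 libraries were ordered by day. The slope test called 18 of the 20 below 0 and none above, with 13 without any 1 of the suspension libraries. It called 3 below 0 if the adherent library of day 4 or of day 6 was dropped, and 19 if that of day 5 was. In the floating cells the 20 genes summed to 1782, 1676 and 1266 CPM. Summed smooth muscle and epithelial genes, given above, were also highest on day 4. Their part in these values was not tested.

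The promoters of the division and sterol genes were looked at because these genes moved together. Among genes with a RefSeq promoter entry (build GRCm38.p6), the 250 bases before the start held CCAAT, on either strand, in 18 of 21 G2 and M phase genes (85.7%), 11 of 12 sterol genes (91.7%) and 13 of 20 S phase genes (65%), beside 37.5% of 27025 genes in the table. The same was 40% of 15 immediate early and 25% of 12 endothelial genes. Entries were there for only 21 of 24 G2 and M phase, 12 of 20 sterol and 20 of 24 S phase genes. The 27025 genes were not limited to those measured in these libraries. CCAAT is the sequence bound by the factor NF-Y. TTTGAA, the cell cycle element known as CHR, was found in 7 of 21 G2 and M phase genes and in none of the 12 sterol genes, beside 18.3% of all. TCACNCCAC, a sterol regulatory element, was found in 1 of 12 sterol genes, beside 1.22% of all. Matches were counted on both strands and for each motif by itself, so matches may overlap. They are matches of letters and not shown to be sites. As examples, the 130 bases before the start are shown for 2 G2 and M phase genes and 2 sterol genes with low ratios. All had a RefSeq entry, a falling pattern, a box in that stretch, and a stretch clear of the annotated gene. These examples do not rank the lists and need not be the genes with the lowest ratios. The stretches are given on the strand of the gene, 5′ to 3′, with CCAAT or its reverse complement in capitals. They lie at chr7:122159305-122159434 (Plk1, plus strand), chr2:172370571-172370700 (Aurka, minus strand), chr13:119690221-119690350 (Hmgcs1, plus strand) and chrX:72918391-72918520 (Nsdhl, plus strand).
Plk1: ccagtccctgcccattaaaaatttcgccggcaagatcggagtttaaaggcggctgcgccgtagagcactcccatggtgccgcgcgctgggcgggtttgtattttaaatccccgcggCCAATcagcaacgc
Aurka: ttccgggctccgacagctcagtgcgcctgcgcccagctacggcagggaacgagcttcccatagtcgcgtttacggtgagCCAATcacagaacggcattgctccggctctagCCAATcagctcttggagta
Hmgcs1: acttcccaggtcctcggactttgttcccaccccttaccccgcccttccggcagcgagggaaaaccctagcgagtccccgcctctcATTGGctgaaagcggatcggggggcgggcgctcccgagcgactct
Nsdhl: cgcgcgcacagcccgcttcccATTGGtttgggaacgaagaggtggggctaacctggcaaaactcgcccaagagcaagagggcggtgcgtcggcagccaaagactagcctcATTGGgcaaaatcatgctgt
Plk1 holds 1 box, whose first base is at -14 from the start, and Aurka holds 2 in the same orientation, at -51 and -19. Hmgcs1 holds 1 in reverse, at -45, and Nsdhl 2 in reverse, at -109 and -20.

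Immediate early genes, which are switched on within minutes of a stimulus or of handling, were higher on days 5 and 6. Of 17 with 10 CPM, 10 had a rising pattern (median log2 ratio 1.37). The sum was 2004 CPM on day 4, 4272 on day 5 and 5138 on day 6, and the median gene with a rising pattern had made 77.7% of its change by day 5. Fos was at 117, 476 and 705 CPM, Egr1 at 203, 459 and 604, Junb at 249, 515 and 648 (all transcription factors) and Btg2, an inhibitor of growth, at 110.2, 427 and 547. In these 4 genes the jump came between days 4 and 5. Floating cells had sums of 1579, 1462 and 1631 CPM. There were 10 slopes called above 0 and none below. Without the adherent library of day 4 none was called above and 1 below. Without that of day 5 or of day 6 there were 14 and 11 above and none below. There were 6, 5 and 6 above if the suspension library of day 4, 5 or 6 was dropped. The cells were detached and sorted on each day, and whether handling differed between days is not given in the sources used here and was not tested.

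Transcripts of the mitochondrial genome took 11.4%, 7.44% and 5.78% of adherent counts on days 4, 5 and 6. All 9 genes with 10 CPM were lower on day 6 than on day 4 (median log2 ratio -0.90), beside 4869 of all 9071 genes. The cytochrome b gene mt-Cytb was at 44031, 27021 and 21202 CPM. A slope below 0 was called for 6, for none if the adherent library of day 4 or of day 6 was dropped, and for 11 if that of day 5 was. With these genes left out before scaling, the medians of the other lists kept their sign, except that of the blood emergence regulators, which was near 0 in both. Ribosomal protein genes took 14.7%, 16.7% and 16.7% of counts. Of 80, 69 were higher on day 6 than on day 4, beside 4202 of all 9071 genes. The median log2 ratio of the 80 was 0.20, with none past 2-fold. The iron storage gene Fth1 was at 11232, 16143 and 26022 CPM, and the nuclear RNA Malat1 at 9889, 14879 and 18801. Glycolysis and hypoxia genes showed no 2-fold pattern in any of 17. Among 8 heat shock genes 2 had a falling pattern, for example Hsph1 at 109, 61.6 and 39.0 CPM. Of 12 genes of the unfolded protein and amino acid response 2 did, both enzymes of amino acid synthesis, Asns at 39.4, 27.0 and 17.9 and Psat1 at 57.5, 34.0 and 22.8. Of 6 interferon response genes 1 peaked on day 5, Rsad2 at 3.84, 20.1 and 7.52 CPM. Of 11 genes of the p53 response and of senescence, 1 had a falling pattern, Cdkn2b at 154, 142 and 55.6.

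**Figure D4:**
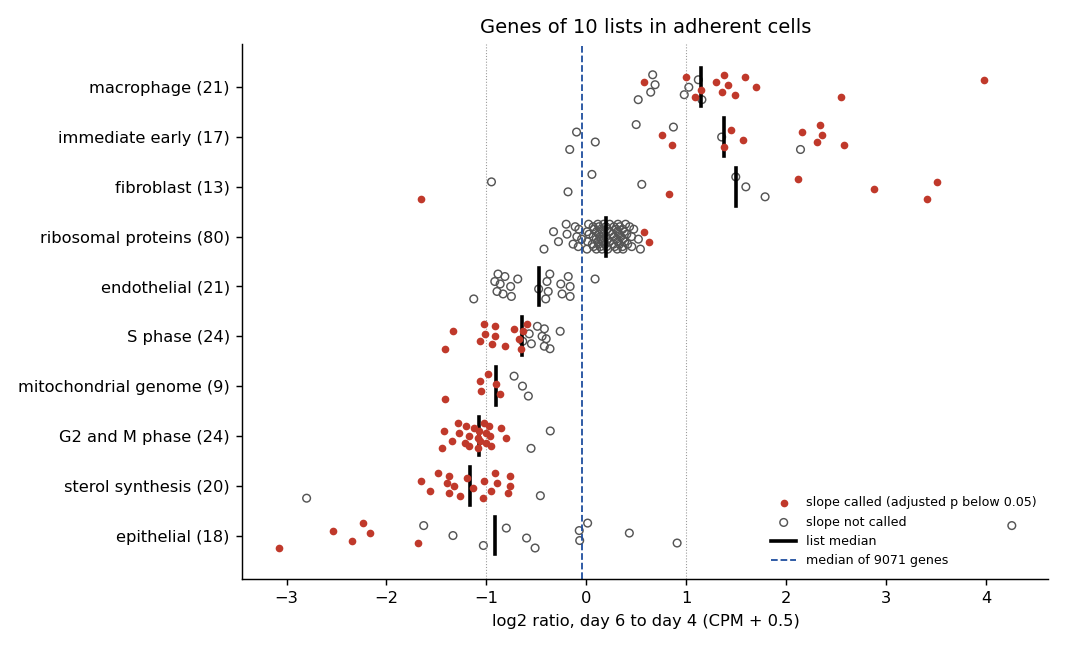
Each point is a gene with at least 10 CPM, by its log2 ratio of day 6 to day 4 (CPM + 0.5), for 10 lists. Filled points have a slope called by edgeR, black bars are list medians and the dashed line is the median of 9071 genes (-0.04). All 24 G2 and M phase, 24 S phase and 20 sterol genes lie below 0 and all 21 macrophage genes above it.

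Factors through which stroma and endothelium act on blood cells moved singly. Of 6 niche factor genes 1 had a rising and 1 a falling pattern. Igf1 was at 35.3, 42.6 and 95.2 CPM. Csf1, the growth factor of macrophages, fell from 107 through 61.4 to 27.0 (slope -0.99 ± 0.08 log2 per day, edgeR adjusted p = 0.0102), a call that held in every fit with 1 library left out. Kitl, the ligand of the receptor Kit, was at 61.8, 64.9 and 31.6 CPM and Cxcl12, which retains blood progenitors, at 135, 75.3 and 101. Of 11 genes of endothelial activation 1 had a rising and 2 a falling pattern. The chemokine gene Ccl2 was at 1652, 1084 and 810.4 CPM. Of 10 proteases and their inhibitors 1 had a rising pattern, Mmp2, a gelatinase, at 54.7, 123 and 159, and 3 had a falling one, among them Timp1, an inhibitor of such enzymes, at 555, 397 and 213. Among 6 oxidative stress genes Hmox1, which breaks down haem, was at 92.7, 125 and 232 CPM and Nqo1, a quinone reductase, at 24.96, 23.2 and 7.47. Tubb3 was the only glial or neuronal gene with 10 CPM, at 31.7, 10.55 and 3.41, and Cd74 the only one of MHC class II, at 18.7, 4.76 and 8.59.

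Among genes with a rising or falling pattern and at least 50 CPM on 1 day, those with the largest ratios came from several of these groups. The mast cell genes Cpa3, Tpsb2 and Cma1, given above, had the largest rising ratios. Ogn (osteoglycin, a small matrix proteoglycan, ENSMUSG00000021390) rose from 3.78 CPM on day 4 through 29.2 on day 5 to 243 on day 6. That is 64.3-fold over the 2 days (95% counting interval 54.6 to 76.2), with a slope of 3.01 ± 0.09 log2 per day (edgeR adjusted p = 0.00204) that was called in every fit with 1 library left out. Eln (elastin) was at 3.97, 14.7 and 99.7 CPM, and the acute phase gene Saa3 at 20.9, 72.6 and 327. Fmo2, an oxygenase of the lung, was at 7.0, 49.2 and 109.7. The chemokine gene Cxcl2 was at 1.04, 52.1 and 77.2, with 90.1% of its log2 change made by day 5. Eln and Marco made most of their log2 change after day 5, and Cxcl2 and Scgb1a1 before it, while Ogn had made 47.9% by day 5. In the other direction Crabp1 (a retinoic acid binding protein, ENSMUSG00000032291) went from 222 through 58.9 to 7.40 CPM, 30.01-fold down over the 2 days (26.7 to 33.8, edgeR adjusted p = 0.0127, or 0.0545 without the adherent library of day 6). Ccn4, a signal protein of the matrix, was at 137, 59.6 and 10.54, Clu (clusterin) at 272, 64.8 and 40.2, the smooth muscle actin gene Actg2 at 184, 41.6 and 22.4, and Gpx2, an epithelial peroxidase, at 51.4, 10.1 and 7.35. Fst (follistatin, which binds activin) was at 415, 246 and 70.6 and Fbln2, a matrix protein, at 334, 266 and 60.5, with 29.6% and 13.2% of the log2 change made by day 5. In all of these day 4 was the highest library and day 6 the lowest.

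**Figure D5:**
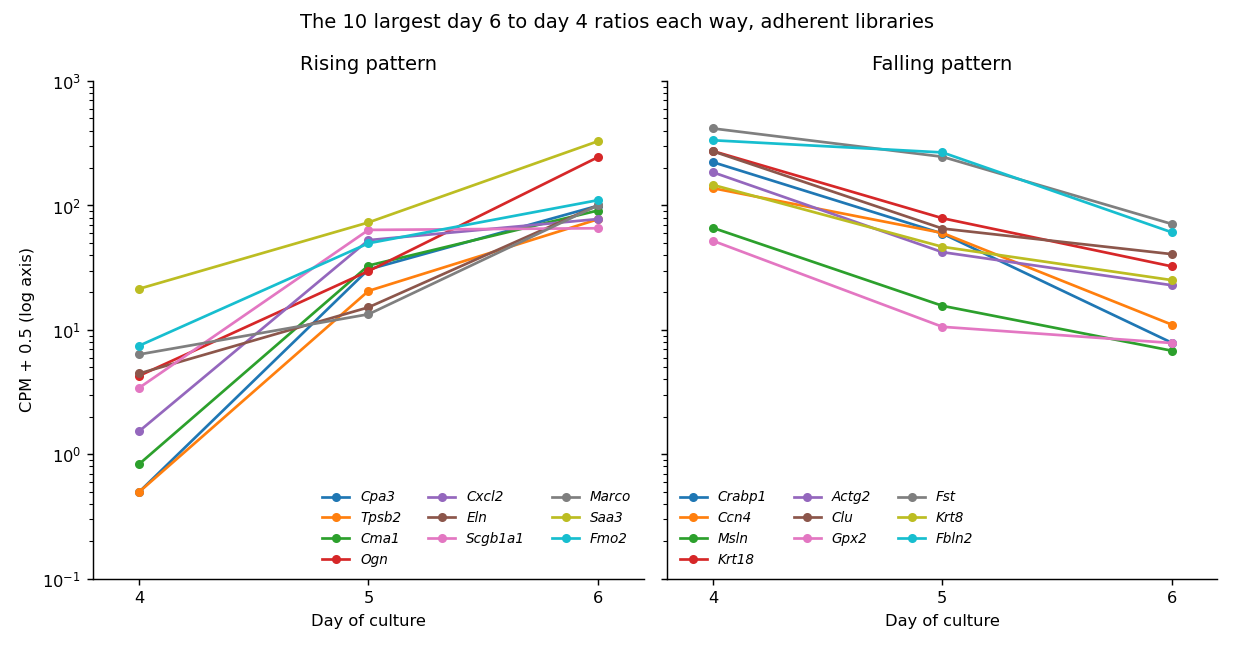
CPM + 0.5 (log axis) by day, 1 point per adherent library, for the 10 genes with the largest ratio of day 6 to day 4 among rising (left) and falling (right) patterns with at least 50 CPM on 1 day. Ogn goes from 3.78 to 243 CPM, and Crabp1 from 222 to 7.40.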

How the data were processed

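Messenger RNA of whole libraries was measured with a droplet kit that reads transcript 3′ ends (10x 3′ v3). The submitters' processing notes name bcl2fastq, Cell Ranger, STARsolo and mm10, with no version among the sources used. The deposited files hold whole-number read counts per gene for 31053 Ensembl identifiers, after 4 summary lines, with columns for either strand, sense and antisense. They are not corrected for molecular identifiers, and the sense column was used. Gene names and positions are those of GENCODE M21 (GRCm38), which matched 31011 identifiers. Promoters came from RefSeq.

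From the counts, CPM was computed with TMM factors of edgeR 4.0.16 (limma 3.58.1, R 4.3.3) over the adherent libraries, and log2 ratios with a pseudocount of 0.5 CPM. Suspension libraries were scaled among themselves, so levels of the fractions are set side by side only as levels. The slope fit used fraction and day within fraction over 6 libraries, factors within each fraction, and genes kept by filterByExpr on the adherent libraries. The ± values are standard errors. The slope fit was tested on simulated counts of 15300 genes, where 13.4%, 85.1% and 100% of the slopes of 0.5, 1 and 2 were found, and 3 of 135 calls were false. The simulated libraries were independent, with the same dispersion for every gene, exactly straight changes and no slope in suspension cells. The share of false calls in the real data may therefore differ. Ratio intervals are exact binomial (95%) on reads and cover no spread between libraries. Because reads are not molecules, the intervals may be too narrow even for counting error. Alternatives included DESeq2 1.42.0.

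The members, the 40 gene lists and the alternatives were chosen with earlier results of these data known. The rule named the 10 largest rising and falling ratios and up to 8 peaks and dips with at least 50 CPM (no Gm or Rik names), the 10 genes with the highest mean CPM, up to 4 genes of each list in a pattern class by CPM (or 2 if none), and Cdh5, Pecam1, Kdr, Emcn, Runx1, Gfi1, Ptprc, Col1a1, Krt8, Lyz2 and Mki67. Other genes named as examples, the slope difference tests (with and without the collection day as a block) and the motif search were chosen after their values were seen. Results of some single genes are not reported here.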

Additional observations from a re-analysis of the deposited data

Results flagged for a closer look

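Ms4a8a, a membrane protein of the MS4A family, was the 1 gene of 15662 (0.00638%) whose slope per day differed between adherent and floating cells, by the quasi-likelihood test of edgeR adjusted after Benjamini and Hochberg, a test added after the data were seen that took the libraries as independent. The difference was 1.87 ± 0.10 log2 per day (adjusted p = 0.0467), and 2947 genes had an unadjusted p under 0.05. In adherent cells it rose from 3.52 through 11.2 to 43.8 CPM (slope 1.83), and in floating cells it stood at 139, 139 and 131 CPM (slope -0.04). With the collection day as a block the difference was 1.87 ± 0.12 (adjusted p = 0.00905), and 786 genes were called.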

How the results depend on the processing

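With a fold of 1.5 in place of 2, the genes with a rising, falling, peak and dip pattern numbered 1112, 984, 110 and 24, and with a fold of 3 they numbered 234, 113, 0 and 2. With at least 30 CPM they numbered 332, 223, 8 and 3. With at least 3 CPM there were 30 peaks and 9 dips, and with a pseudocount of 2 CPM 10 peaks. Genes higher and lower past a fold of 1.5, 3, and past 2 with at least 30 CPM numbered 640 and 462, 65 and 43, and 104 and 60 from day 4 to 5, where 3 CPM gave 308 and 202. They numbered 619 and 572, 61 and 47, and 123 and 122 from day 5 to 6, and 1217 and 1183, 243 and 126, and 346 and 244 from day 4 to 6. Called slopes numbered 489 above and 296 below 0 with the adherent libraries alone (1 residual degree of freedom), and DESeq2's Wald test called 1079 below. Leaving out 1 library at a time, which also leaves 1 residual degree of freedom, gave from 248 to 1749 above and from 150 to 1437 below. The adherent line keeps its span of days 4 to 6 without day 5, but not without day 4 or 6. How far these features of the fits account for the changed counts was not tested. Other scalings, thinned counts and either strand left these counts within 1.5 times of those reported. No named ratio changed sign over 4 such settings, and the largest shift was 0.114. The list of endothelial activation had a median of 0.25 with reads on either strand, against -0.16, and that of the blood emergence regulators was within 0.1 of 0 on either side. With the collection day as a replicate block, which pairs the 2 fractions, the slope difference was called in 786 genes against 1. The adherent slope alone cannot be fitted with that block. Replicate numbers pair nothing, since each group has 1 library. Thinning removes reads and does not measure molecules, so how far depth limits values above 10 CPM was not tested. The lack of replicate libraries limits every peak and dip.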

Other observations

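Some genes outside the lists, chosen after their values were seen, had marked courses. Cxcl13, a chemokine that attracts B cells, had 0, 15 and 1750 counts in the adherent libraries of days 4, 5 and 6, or 0, 0.404 and 43.3 CPM. It was at least 557-fold higher on day 6 than a floor of 3 counts on day 4, and the floating libraries had 0.0223, 0 and 0 CPM. Its slope was called by edgeR (adjusted p = 0.00628), but not without the adherent library of day 6 (adjusted p = 0.239). Scube2, a secreted protein, was at 0.156, 2.13 and 20.3 CPM. Arg1 (arginase) rose from 38.4 through 282 to 549 CPM and Gpx3, a secreted peroxidase, from 78.2 through 278 to 727, and both calls held in every fit with 1 library left out. Sparcl1, a matrix protein, was at 98.5, 218 and 653.

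The GTPase genes Gimap4, Gimap6, Gimap1 and Gimap5, neighbours on chromosome 6, were highest on day 5, at 24.0, 44.8 and 15.6, at 15.1, 34.1 and 10.52, at 13.2, 27.8 and 9.65, and at 7.13, 17.5 and 6.31 CPM. Of these Gimap6, Gimap1 and Gimap5 passed the 2-fold rule for a peak. Low values on day 6 alone were seen for Ccnd1 (cyclin D1), at 816, 736 and 231 CPM, for Hmga2, a chromatin protein of fetal tissue, at 581, 434 and 132, and for Tm4sf1, a membrane protein, at 799, 658 and 158. None of their slopes was called (adjusted p = 0.0595, 0.0608 and 0.142). Bpifa1, a secreted protein of airway epithelium, was at 32.2, 0.108 and 0.421 CPM.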
